A study of Mus musculus with 12 samples.

Results

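The genes described here are 5 brakes on cell growth and division: Ddit4, Mxi1, Cdkn1a, Ccng2 and Sesn2, taken by name, 5 of the 21631 protein-coding genes that were annotated on the autosomes and chromosome X. They were chosen with earlier results of these data known. For each gene, every HIF1A and ARNT peak that overlapped the gene span or the 10 kb on either side was collected. The peaks come from ChIP-seq, the sequencing of DNA recovered with an antibody, in N1E115, a mouse neuroblastoma cell line that the labels call NOS1+. HIF1A was precipitated from cells at 4% O2 (2 lists) and from cells at 20% O2 (2 lists), and ARNT likewise (2 and 2 lists), after 3 days in culture with 5% CO2 in every group. There are 8 peak lists, each called by the authors against an input, and 4 input samples without a list of their own. The labels name no treatment other than oxygen. All groups are 1 cell line, and the lists give no expression data with which to check its type.

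HIF1A is the subunit of the transcription factor HIF-1 that oxygen-dependent hydroxylases mark for destruction, and ARNT is its stable partner. The pair binds short DNA elements with the core letters ACGTG or GCGTG. Low oxygen slows growth through several routes. Ddit4 (also REDD1) releases the TSC complex to inhibit mTORC1, the kinase complex that promotes protein synthesis. Sesn2, a sestrin, senses leucine and restrains mTORC1 through the GATOR complexes. Mxi1 pairs with MAX and represses genes that MYC activates. Cdkn1a (p21) inhibits cyclin-dependent kinases, and Ccng2 encodes cyclin G2, an unconventional cyclin linked to cell cycle arrest.

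The lists differ in length and form, which bears on each value below. HIF1A at 4% O2 had 42701 and 13655 peaks in replicates 1 and 2, against 5393 and 13386 at 20% O2. ARNT had 24942 and 9920 peaks at 4% O2, against 7252 and 1808 at 20% O2. The HIF1A replicate 2 lists hold entries of 1 bp, read here as summits. The other lists hold intervals with medians of 129 to 182 bp. Depth is unknown, because the files hold no read counts. A peak's percentile is the position of its score, the authors' own value, within its list, with 100 for the highest. Percentiles place a peak within its list and, as the lists differ in length, show no change between lists. Whether replicates are separate cultures is not in the labels, so the p-values speak only of the spread over these samples and that spread may be technical.

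The promoter stretches were searched for the core letters and set beside the peaks. RefSeq (build GRCm38.p6, the assembly behind mm10) lists 8 starts for the 5 genes, and all 5 matched by symbol. The 250 bases before 1 start per gene are printed 5′ to 3′ on the gene's own strand, with the motif ACGTG or GCGTG, on either strand, in capitals. For Mxi1 and Cdkn1a the second listed start is shown, since it is the start with peaks in 5 of the 8 lists in this stretch. Peaks there were thus the ground for the choice and are not a result about the motifs.
Ddit4, chr10:59951771-59952020, minus strand: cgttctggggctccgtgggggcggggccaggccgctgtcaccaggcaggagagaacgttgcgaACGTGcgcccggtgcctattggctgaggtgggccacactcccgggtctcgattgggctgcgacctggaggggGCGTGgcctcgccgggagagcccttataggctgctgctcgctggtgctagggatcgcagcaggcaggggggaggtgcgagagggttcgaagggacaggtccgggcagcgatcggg
Mxi1, chr19:53329163-53329412, plus strand: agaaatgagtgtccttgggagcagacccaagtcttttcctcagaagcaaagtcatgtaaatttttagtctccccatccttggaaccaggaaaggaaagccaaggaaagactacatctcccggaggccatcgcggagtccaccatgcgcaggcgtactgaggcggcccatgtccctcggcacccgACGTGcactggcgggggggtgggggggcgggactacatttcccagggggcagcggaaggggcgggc
Cdkn1a, chr17:29093519-29093768, plus strand: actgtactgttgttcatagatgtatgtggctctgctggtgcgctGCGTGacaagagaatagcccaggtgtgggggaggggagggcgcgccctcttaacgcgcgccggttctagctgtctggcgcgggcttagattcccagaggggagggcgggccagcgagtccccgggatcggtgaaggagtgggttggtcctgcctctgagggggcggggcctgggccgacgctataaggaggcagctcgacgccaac
Ccng2, chr5:93267323-93267572, plus strand: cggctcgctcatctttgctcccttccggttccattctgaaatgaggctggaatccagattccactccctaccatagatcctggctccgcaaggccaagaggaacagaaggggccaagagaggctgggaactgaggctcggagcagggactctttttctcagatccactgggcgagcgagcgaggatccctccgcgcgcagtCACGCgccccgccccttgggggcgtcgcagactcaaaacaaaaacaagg
Sesn2, chr4:132510457-132510706, minus strand: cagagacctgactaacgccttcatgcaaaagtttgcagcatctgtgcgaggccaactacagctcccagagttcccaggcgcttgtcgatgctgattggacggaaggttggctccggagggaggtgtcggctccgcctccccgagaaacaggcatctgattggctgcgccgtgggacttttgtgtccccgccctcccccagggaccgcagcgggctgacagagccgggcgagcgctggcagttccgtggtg

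The Ddit4 stretch holds ACGTG beginning 187 bases before the start and GCGTG at 115 bases. The ACGTG of Mxi1 begins 66 bases before its start, and the GCGTG of Cdkn1a begins 206 bases before. In Ccng2 the capitals are GCGTG on the opposite strand, 49 bases before the start. The nearest HIF1A summit of replicate 2 at 4% O2 lies 522 bp from the centre of this Ccng2 motif. Sesn2 has neither motif in this window. The first listed Mxi1 start, not printed, also has neither motif, though 4 lists had a peak in the 250 bases before it. The first listed Cdkn1a start, not printed, has neither motif. The third listed Mxi1 start, not printed, has an ACGTG that begins 25 bases before it. Peaks of 2 lists at 4% O2 covered that motif, and the nearest HIF1A summit of replicate 2 at 4% O2 was 311 bp from its centre. Searched on both strands, ACGTG occurred in 16.6% and GCGTG in 28.2% of 32851 RefSeq promoter windows of this length, and at least 1 of them in 38.6%. The E-box CACGTG, which contains ACGTG, was in 6.02% of the windows and in none of the 8 of these genes. A match of 5 letters is common and is a description only.

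At 4% O2 all 5 genes had a peak in both HIF1A lists and in both ARNT lists. Since the genes were chosen with earlier results of these data known, the shares of all genes below are a setting and no test. A single list had a peak at 56.9% and 34.8% of all protein-coding genes for HIF1A at 4% O2 (replicates 1 and 2) and at 49.3% and 35.5% for ARNT. Among all protein-coding genes 34.5% had a peak in both HIF1A lists at 4% O2, 31.6% in both ARNT lists and 26.4% in all 4. At 20% O2 only Ddit4 had a peak in both lists of an antibody, for HIF1A (10.7% of all genes) and for ARNT (7.25%). The 2 HIF1A lists at 20% O2 differed: replicate 1 had a peak at Ddit4 alone (1 of 5 genes, 11.3% of all genes) and replicate 2 had one at all 5 (31.7%). ARNT at 20% O2 had peaks at Ddit4, Ccng2 and Sesn2 in replicate 1 (22.3% of all genes) and at Ddit4 in replicate 2 (7.60%). ARNT peaks in both lists at 4% O2 and in neither at 20% O2 marked Mxi1 and Cdkn1a, 2 of 5 genes, against 16.8% of all genes. For HIF1A that pattern held for 0 of the 5 genes (9.96% of all genes), since replicate 2 at 20% O2 had a peak at each. The windows run from 22096 bp at Ddit4 to 83166 bp at Mxi1, with a median over all genes of 37329 bp. Longer windows have more room for peaks.

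**Figure D1:**
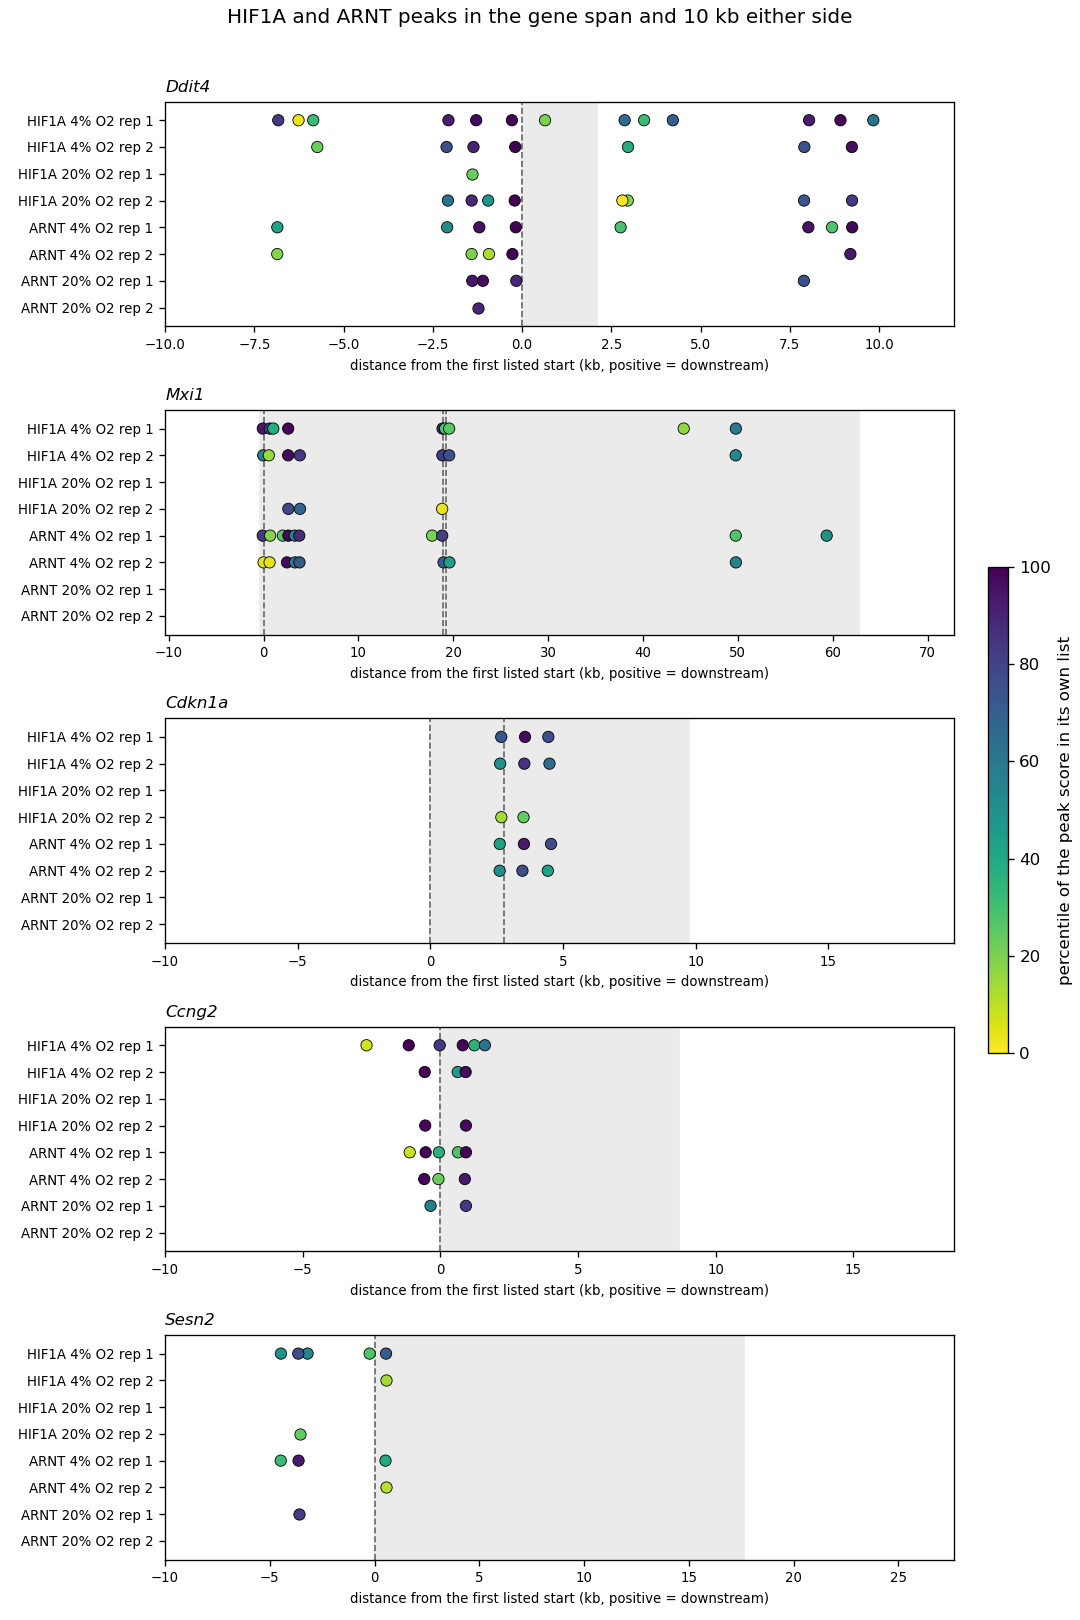
Positions of all HIF1A and ARNT peaks around the 5 genes, as distance in kb from the first listed start with transcription to the right. Rows are the 8 lists, dots are peak centres coloured by the percentile of the score in the peak's own list, grey bands are gene spans and dashed lines are listed starts. Most peaks lie within a few kb of a start, and Ddit4 has a further cluster beyond the end of the gene.

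Ddit4 (chr10:59949675-59951770, minus strand) was the one gene of the 5 with a peak in all 8 lists. HIF1A had 13 and 7 peaks in its window at 4% O2, against 1 and 8 at 20% O2. ARNT had 8 and 5 peaks at 4% O2, against 4 and 1 at 20% O2. The HIF1A numbers overlap between oxygen levels, as replicate 2 had 7 summits at 4% and 8 at 20% O2, while the ARNT numbers do not. Per 10000 peaks of the list the ARNT order was reversed, with 3.21 and 5.04 at 4% O2, against 5.52 and 5.53 at 20% O2. The share of all genes with ARNT numbers that do not overlap was not counted. The mean over antibodies was higher by 4.75 peaks at 4% O2, 8.25 against 3.5 per list (two-sided exact permutation test of oxygen labels within antibody, p = 0.167). With 36 arrangements this exact test cannot go below p = 0.0556 for any gene, so none could pass 0.05. It was 1.75 peaks with 5 kb either side of the gene and 16.75 with 50 kb. Without HIF1A at 20% O2 replicate 1 the difference was 3 peaks, and per 10000 peaks of each list it turned to -0.61 (exact permutation test, p = 0.611).

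The highest Ddit4 peak at 4% O2 overlapped the printed promoter stretch in all 4 lists. For HIF1A at 4% O2 it ranked 64th of 42701 peaks in replicate 1 and 35th of 13655 in replicate 2. For ARNT at 4% O2 it ranked 69th of 24942 and 30th of 9920. These ranks are percentiles of 99.7 to 99.9. At 20% O2 HIF1A replicate 2 had a summit there too, 22nd of 13386 (percentile 99.8), and ARNT replicate 1 a peak at percentile 89.3, while HIF1A replicate 1 and ARNT replicate 2 had none over the printed stretch. The HIF1A summits of replicate 2 stood 195 bp before the start at 4% O2 and 208 bp before it at 20% O2. They lie 10 bp and 23 bp from the centre of the ACGTG printed above, which was covered by the 3 interval peaks at 4% O2 and by ARNT replicate 1 at 20% O2.

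A neighbouring Ddit4 site had peak centres between 930 and 1416 bp before the start. It held the highest ARNT peaks of the window at 20% O2, at percentiles 96.9 and 89.4, the single HIF1A peak of replicate 1, at 22.7, and HIF1A summits of replicate 2 at 48.2 and 88.9. At 4% O2 the HIF1A peaks nearest to it were at percentiles 97.4 and 89.9, and the ARNT peaks at 95.6 in replicate 1 and 13.2 and 19.7 in replicate 2. The highest ARNT peak in the window was thus on the promoter in both lists at 4% O2 and on this upstream site in both lists at 20% O2. At 20% O2, however, ARNT replicate 1 also had the promoter peak, at 89.3, and ARNT replicate 2 had only 1 peak in the window. In HIF1A replicate 2 the highest peak was on the promoter at both oxygen levels. The share of all genes whose highest ARNT peak differs in place between oxygen levels was not counted. A further cluster lay beyond the end of the gene, with peak centres 7890 to 9243 bp after the start. There HIF1A at 4% O2 reached percentiles of 99.1 and 96.5 and ARNT 97.9 and 93.5. At 20% O2 this cluster had peaks in HIF1A replicate 2, at 83.3, and in ARNT replicate 1, at 75.1. No other annotated gene lies in the window.

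Mxi1 (chr19:53310128-53373293, plus strand) had more peaks at 4% than at 20% O2 for both antibodies. HIF1A had 9 and 7 peaks at 4% O2, against 0 and 3 at 20% O2. ARNT had 10 and 8 peaks at 4% O2, against 0 and 0 at 20% O2. Every list at 4% O2 exceeded every list at 20% O2, with a mean difference of 7.75 peaks (exact permutation test, p = 0.0556, the smallest possible). Of all genes, 8.04% had more peaks in every list at 4% than in any list at 20% O2. Mxi1, Cdkn1a and Ccng2 were the 3 of the 5 genes with that pattern, and none of the 3 kept it per 10000 peaks of the list. On that scale Mxi1 was at 2.11 in HIF1A at 4% O2 replicate 1, against 2.24 in HIF1A at 20% O2 replicate 2. Cdkn1a was at 0.703 in HIF1A at 4% O2 replicate 1, against 1.49 in HIF1A at 20% O2 replicate 2. Ccng2 was at 1.41 in HIF1A at 4% O2 replicate 1, against 2.76 in ARNT at 20% O2 replicate 1.

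The main Mxi1 site was inside the gene, with peak centres 2471 to 2616 bp after the first listed start. At 4% O2 its HIF1A peaks were at percentiles 99.2 and 97.6 and its ARNT peaks at 99.1 and 97.2. At 20% O2 the one list with a peak there was HIF1A replicate 2, at 79.2, with its summit 22 bp from the summit at 4% O2. Binding at 4% O2 was also found at the first start (HIF1A 93.8 and 57.5, ARNT 83.7 and 4.9) and at the second start, where the printed ACGTG lies. At the second start HIF1A reached 91.5 and 83.2 and ARNT 81.6 and 71.0, with the HIF1A summit of replicate 2 at 12 bp from the motif's centre. HIF1A replicate 2 at 20% O2 had a summit there at percentile 2.8, near the bottom of its list. A weaker site deep in the gene, 30598 bp after the nearest start, had peaks in all 4 lists at 4% O2 (27.6 to 59.4) and in none at 20% O2. The lncRNA gene Gm30541 (chr19:53306741-53326867) spans the first start and the main site, and Smndc1 reaches into the end of the window, so these peaks cannot be assigned to Mxi1 by position alone.

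Cdkn1a (chr17:29090979-29100722, plus strand) had the same 3 sites in all 4 lists at 4% O2. HIF1A had 3 and 3 peaks at 4% O2, against 0 and 2 at 20% O2. ARNT had 3 and 3 at 4% O2, against 0 and 0 at 20% O2. The groups do not overlap, and the mean difference was 2.5 peaks (exact permutation test, p = 0.0556). All 3 sites lie around the second listed start, and the first start, further upstream, had no peak in the 250 bases before it in any list. The middle site, 725 bp after the second start, was the highest in 4 of 4 lists at 4% O2. Its HIF1A peaks were at percentiles 97.4 and 85.7 and its ARNT peaks at 93.3 and 76.4. The promoter peak, over the GCGTG printed above in the 3 interval lists, was lower (73.4, 50.2, 42.3 and 51.4), and the site 1659 bp after the start lay between 42.6 and 77.0. At 20% O2 the promoter and middle sites had summits in HIF1A replicate 2, at percentiles 13.6 and 24.1, and the last site had none.

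Ccng2 (chr5:93267573-93276231, plus strand) had a pair of strong sites on either side of its start. HIF1A had 6 and 3 peaks at 4% O2, against 0 and 2 at 20% O2. ARNT had 5 and 3 at 4% O2, against 2 and 0 at 20% O2. No list at 20% O2 reached the lowest list at 4% O2, and the mean difference was 3.25 peaks (exact permutation test, p = 0.0556). The upstream site, with summits 569 bp before the start at 4% O2 and 551 bp before it at 20% O2, had HIF1A peaks at percentiles 99.7 and 99.2 and ARNT peaks at 99.6 and 99.2 in cells at 4% O2. The downstream site, 901 bp after the start, was at 99.1 and 97.0 for HIF1A and 98.9 and 93.0 for ARNT. The promoter stretch printed above, between them, also held separate peaks of lower percentile, 83.5 for HIF1A replicate 1 and 36.1 and 22.9 for ARNT. At 20% O2 both strong sites appeared in 1 list of each antibody. HIF1A replicate 2 had them at 98.6 and 98.0, ranks 182 and 267 of 13386, and ARNT replicate 1 at 57.2 and 84.0. HIF1A replicate 1 and ARNT replicate 2 at 20% O2 had no peak in the window.

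Sesn2 (chr4:132492804-132510456, minus strand) was the most weakly bound of the 5, by the percentile of its highest peak in each HIF1A list at 4% O2 and in replicate 2 of ARNT. HIF1A had 5 and 1 peaks at 4% O2, against 0 and 1 at 20% O2. ARNT had 3 and 1 at 4% O2, against 1 and 0 at 20% O2. The oxygen levels overlap, and the mean difference was 2 peaks (exact permutation test, p = 0.222). It was 1 peak without HIF1A at 4% O2 replicate 1. The site found in all 4 lists at 4% O2 lay 534 bp inside the gene, at percentiles 71.1 and 13.7 for HIF1A and 39.4 and 10.6 for ARNT, with no peak at 20% O2. The highest peaks of replicate 1 were elsewhere, 3628 bp before the start, where HIF1A replicate 1 at 4% O2 was at 77.3 and ARNT replicate 1 at 93.4. The site appeared at 20% O2 too, in HIF1A replicate 2 (24.1) and ARNT replicate 1 (82.5), and in neither replicate 2 list at 4% O2. The tRNA gene n-TAagc8 lies 1776 bp from this site, and the pseudogene Gm52758 is at the other end of the window.

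**Figure D2:**
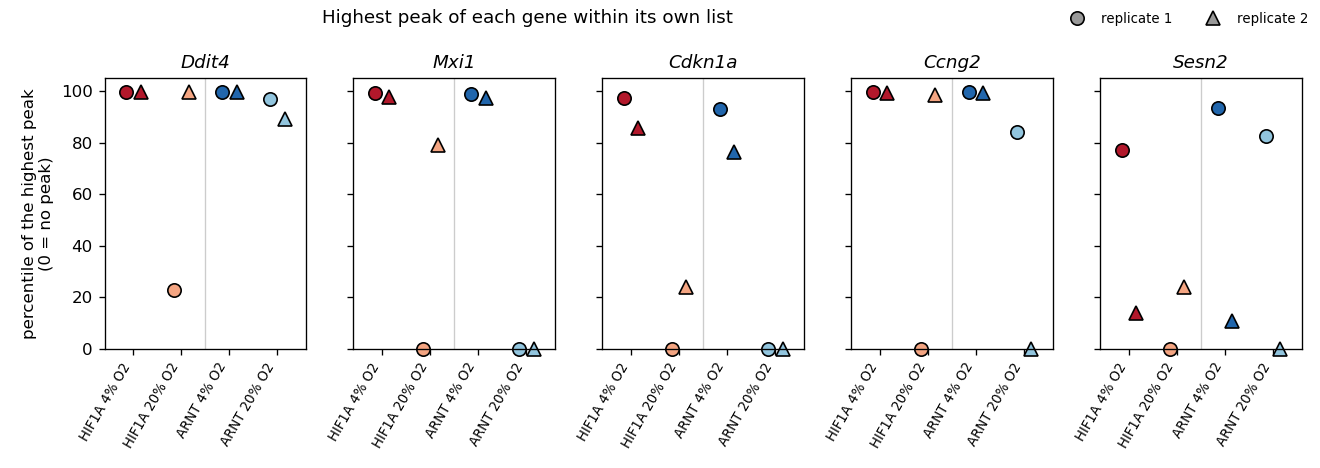
Percentile of the highest peak of each gene within its own list, with 0 where the window had no peak. Circles are replicate 1 and triangles replicate 2. At 4% O2 Ddit4, Mxi1 and Ccng2 sit at 97.2 or above in all 4 lists, and at 20% O2 HIF1A replicate 2 stands above replicate 1 for all 5 genes.

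The order of the 5 genes by highest peak was much the same in the 4 lists at 4% O2. Ddit4 was highest in each, followed by Ccng2, Mxi1 and Cdkn1a, with Sesn2 last except in ARNT replicate 1, where Sesn2 (93.4) and Cdkn1a (93.3) were level. In ARNT the ranges of Cdkn1a and Sesn2 overlapped. The other neighbours in this order had ranges over replicates that did not overlap, the closest in HIF1A being the lower value of Ccng2 (99.24) and the higher value of Mxi1 (99.19). Sesn2 spread most, from 77.3 to 13.7 in HIF1A and from 93.4 to 10.6 in ARNT. Its highest peak was at a different site in replicate 1 than in replicate 2, and the lists differ in length. Counted after the values were seen, 3 of the 5 genes (Ddit4, Mxi1 and Ccng2) had a peak in the highest 10% of each of the 4 lists at 4% O2, against 4.18% of all genes.

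**Figure D3:**
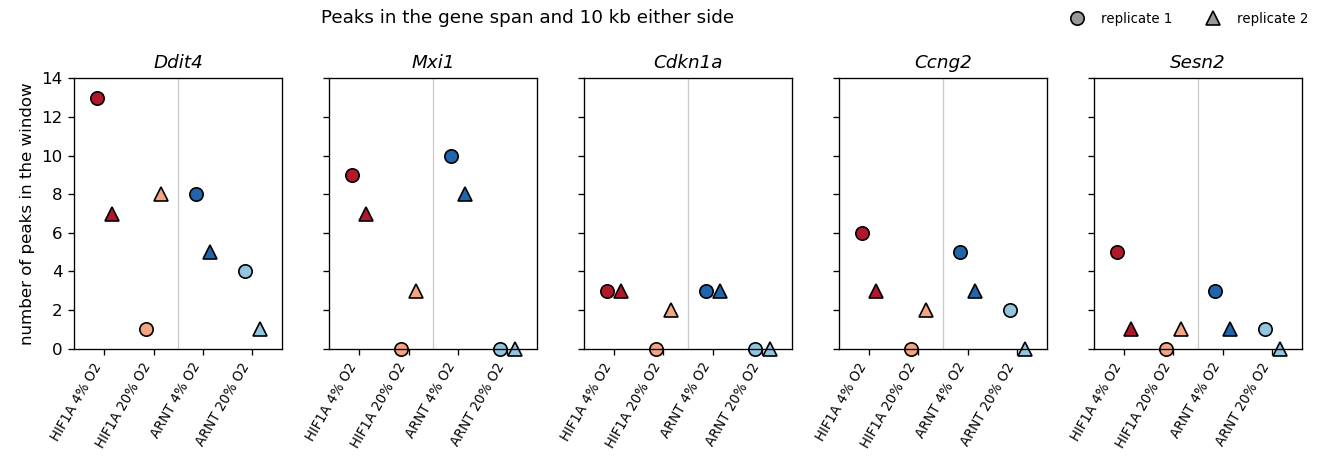
Number of peaks in the window of each gene per list. Circles are replicate 1 and triangles replicate 2. Lists at 4% O2 lie above all lists at 20% O2 for Mxi1, Cdkn1a and Ccng2, though not per 10000 peaks of the list, and the groups overlap for Ddit4 and Sesn2.

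Sites of HIF1A and ARNT were then set side by side. With peaks within 100 bp merged and 1 bp entries widened by 100 bp either side, the 5 windows held 30 sites. In cells at 4% O2, 16 sites had a peak in both HIF1A lists and 14 in both ARNT lists, and 13 had a peak in all 4. The shared sites are thus 13 of the 16 HIF1A sites and 13 of the 14 ARNT sites: 5 at Mxi1, 3 at Cdkn1a, 2 each at Ddit4 and Ccng2, and 1 at Sesn2. These are 81.2% of the HIF1A sites and 92.9% of the ARNT sites, against 46.3% of 12410 HIF1A sites and 83.6% of 6880 ARNT sites over chromosomes 1 to 19 and X. The chromosome-wide sites include those between genes. By gene, 76.6% of the 7459 protein-coding genes with a peak in both HIF1A lists at 4% O2 had one in all 4 lists. For ARNT this was 83.6% of 6839 genes, and all 5 genes here had a peak in all 4. The difference from these shares was not tested. At 20% O2, 10 sites had a peak in at least 1 list, and all 10 also had one at 4% O2. The same share over all sites was not counted, and within each antibody the lists at 4% O2 were the longer ones. A site with both lists of an antibody at 20% O2 was found once for HIF1A and once for ARNT, and it was the stretch of the Ddit4 promoter and upstream site in both cases. A total of 11 sites were seen in 1 list only.

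Genes of the same 3 systems were then counted as a setting for the 5. Neighbouring genes and window lengths were not checked for them, so their peaks cannot be assigned to them by position alone. Of 26 other mTORC1 regulators, 17 had a peak in both HIF1A lists at 4% O2 and 15 in both ARNT lists, against 6 and 3 at 20% O2. They were led by Nprl2 and Depdc5, GATOR1 subunits that restrain mTORC1, Eif4ebp1, a translation repressor that mTORC1 phosphorylates, Mlst8, an mTOR complex subunit, and Stk11 (LKB1), the kinase upstream of AMPK. Their mean HIF1A percentiles at 4% O2 ran from 96.6 to 98.7. The sestrin Sesn1 had 3 and 2 HIF1A peaks at 4% O2, against 0 and 0 at 20% O2. Sesn3, another sestrin, had 4 and 0 at 4% O2, against 2 and 0 at 20% O2. Ddit4l, the Ddit4 relative, had no peak in any list.

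Of 12 other genes of the MYC and MAX network, 9 had a peak in both HIF1A lists at 4% O2 and 10 in both ARNT lists, against 2 and 3 at 20% O2. Mxd3 and Mnt, MAX partners that repress like Mxi1, had mean HIF1A percentiles of 97.7 and 95.9, and Mlxipl (ChREBP), Max itself and Mga had 97.1, 92.5 and 86.0. Of 24 other cell cycle genes, 13 had a peak in both HIF1A lists at 4% O2 and 15 in both ARNT lists, against 1 and 6 at 20% O2. The highest were Cdk4 (98.4), a G1 kinase, Cdkn1b (95.6), the p27 inhibitor, Ccne1 (94.4), cyclin E1, Mdm2 (91.0), which restrains p53, and Ccnd3 (86.3), cyclin D3. Both drivers and inhibitors of the cycle are among these genes. Cdkn2a and Cdkn2b had no peak in any list, and Ccng1, the relative of Ccng2, had 1 and 0 HIF1A peaks at 4% O2, against 0 and 0 at 20% O2. In HIF1A at 4% O2 the shares of mTORC1, MYC/MAX and cell cycle genes were 65.4%, 75.0% and 54.2%, against 34.5% of all genes. In ARNT they were 57.7%, 83.3% and 62.5%, against 31.6%. At 20% O2 the HIF1A shares of the 3 lists were 23.1%, 16.7% and 4.17%, against 10.7% of all genes. The cell cycle share, the one below that of all genes, rests on 1 of 24 genes. The ARNT shares at 20% O2 were 11.5%, 25.0% and 25.0%, against 7.25%. These shares were not tested. With only the 1808 highest peaks of each list, the ARNT count of cell cycle genes was 5 at 4% O2, against 6 at 20% O2. The share of all genes at that setting was not counted.

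**Figure D4:**
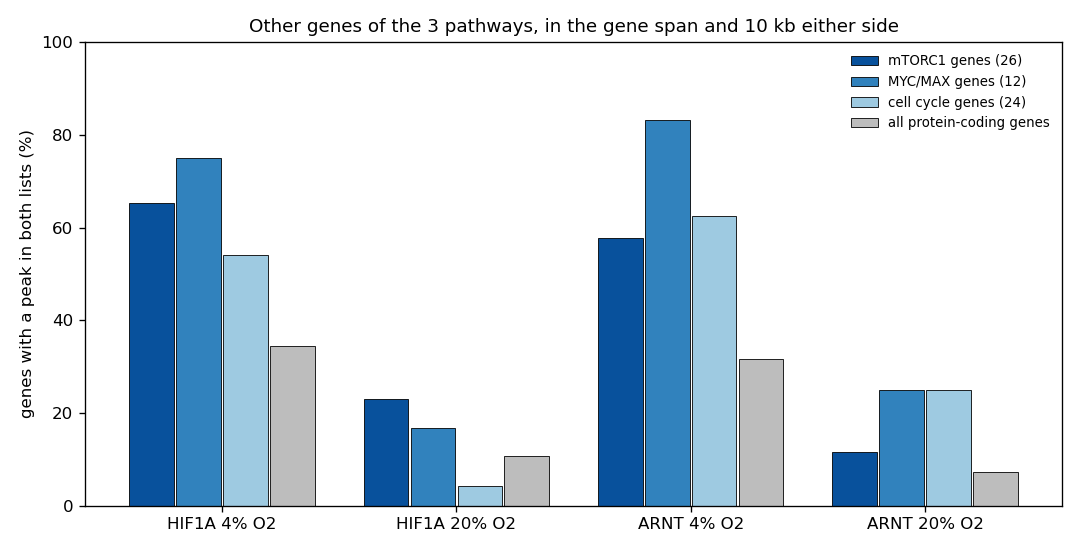
Percent of the other mTORC1, MYC/MAX and cell cycle genes, and of all protein-coding genes, with a peak in each of the group's lists. Bars start at 0 and carry no error, as they count genes. The 3 lists stand above all genes at 4% O2 for both antibodies.

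The protein-coding genes most like each of the 5 were taken by the mean absolute difference in highest percentile over the 8 lists. For Ddit4 they were Pfkp, Nf2 and Pgk1, at 1.51 to 2.80 percentile points. For Mxi1 they were Hey1, with LOC115489673 at identical values, and Gpr132, at 0.38 to 0.45 points. Cdkn1a was closest to Bfsp1, Mia2 and Tcte2 (0.997 to 1.31), and Ccng2 to Crebrf, Hikeshi and Pcm1 (0.31 to 0.70). Sesn2 had no close match, with 1110038F14Rik at 4.96 and Nckap5l and Slbp at 6.04 and 6.40 points.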

How the data were processed

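The authors deposited 1 peak list per ChIP sample with a score per peak, whose scale no file header names. BWA, Picard, MACS2 and mm10 are named, without versions, per the submitters' processing notes. Inputs were paired with samples as in the sample names, input 5 for HIF1A replicate 2 and input 4 for the rest. Per the file headers, all replicate 1 samples shared 1 lane; the design text says HIF1A replicate 2 combined a pair of runs.

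Python 3.11.15 and NumPy 2.4.6 were used here. Peaks were matched to gene spans of GRCm38.p6 plus 10 kb with an overlap of at least 1 bp, checked on simulated peaks. Exon positions were not used here. Oxygen labels were exchanged within antibody in a two-sided exact permutation test of peak numbers, 1 per gene, unadjusted. Groups came from sample titles. Members, gene lists (62 genes, all matched) and tests were chosen with earlier results of these data known. Named were the 5 genes, up to 5 per list by mean HIF1A percentile at 4% O2, 3 most similar genes each and genes in their windows; other genes named with no rank were chosen after their values were seen. Alternatives were windows of 5 or 50 kb, the 1808 highest peaks of each list, widened entries, peaks per 10000, single lists left out, a replicate block and a 500 bp merge.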

Additional observations from a re-analysis of the deposited data

How the results depend on the processing

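When only the 1808 highest peaks of a list were kept, 3 of the 5 genes had a peak in both HIF1A lists at 4% O2, 3 in both ARNT lists at 4% O2 and 0 in both HIF1A lists at 20% O2; in the exact permutation test the difference was 1.25 peaks for Ddit4 (p = 0.278), 1 for Mxi1 (p = 0.0556), 0.5 for Cdkn1a (p = 0.5), 1.25 for Ccng2 (p = 0.167) and 0 for Sesn2 (p = 1). For HIF1A at 4% and 20% O2, then ARNT at 4% and 20% O2, the same setting gave 5, 3, 5 and 2 mTORC1 genes, 3, 0, 3 and 1 MYC/MAX genes, and 3, 0, 5 and 6 cell cycle genes, so the ARNT order of cell cycle genes turned round. Shorter lists hold fewer genes by construction. The share of all genes was not counted for the 1808 highest peaks or for 50 kb either side, so these counts have no background. With 50 kb either side, 2 of the 5 genes counted at 20% O2 for each antibody, and the difference in peaks was 16.75 for Ddit4, 11.75 for Mxi1, 4.75 for Cdkn1a, 3.25 for Ccng2 and 4.25 for Sesn2. From single lists, the counts were 5 and 5 for each antibody at 4% O2, and at 20% O2 1 to 5 for HIF1A and 1 to 3 for ARNT. Per 10000 peaks of the list, the exact permutation test gave -0.61 for Ddit4 (p = 0.611), 4.27 for Mxi1 (p = 0.111), 1.41 for Cdkn1a (p = 0.111), 1.09 for Ccng2 (p = 0.278) and 0.497 for Sesn2 (p = 0.333); the cause was not tested. Leaving out 1 list gave differences of 3 to 6.5 peaks for Ddit4, 7 to 8.5 for Mxi1, 2 to 3 for Cdkn1a, 2.5 to 4 for Ccng2 and 1 to 3 for Sesn2. Merging within 500 bp left 3, 1 and 1 sites shared by all 4 lists at 4% O2 at Mxi1, Cdkn1a and Ccng2. In the exact permutation test with a replicate block, pairing lists by number within antibody (16 arrangements, smallest p = 0.125), p was 0.25 for Ddit4 and Sesn2 and 0.125 for Mxi1, Cdkn1a and Ccng2. Deviations of same-numbered lists correlated at 0.07 for HIF1A and 0.22 for ARNT over 13224 genes; the labels do not say that a number marks a shared culture, though all replicate 1 samples shared a lane. Depth, which is unknown, limits what an absent peak says.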

Other observations

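Within HIF1A replicate 2, whose lists give summits to the base, the 20% O2 list had 16 summits in the 5 windows, and 13 of them lay within 100 bp of a summit of the 4% O2 list. The distance had a median of 24.5 bp over all 16, and 5 bp was the smallest. The same share outside these windows was not counted, so the closeness cannot be called a trait of these genes. The exceptions were 2 Ddit4 summits, at 158 bp and 413 bp, and the Sesn2 summit, whose nearest partner was 4139 bp away. The percentiles that follow place each summit in its own list and show no change between lists. At the Ddit4 promoter the percentile was 99.8 at 4% and 99.8 at 20% O2. At the upstream site of Ccng2 it was 99.2 at 4% and 98.6 at 20% O2, and at the downstream site of Ccng2 97.0 at 4% and 98.0 at 20% O2. At the main Mxi1 site it was 97.6 at 4% and 79.2 at 20% O2, and at the middle site of Cdkn1a 85.7 at 4% and 24.1 at 20% O2. Replicate 1 at 20% O2 had none of these sites. The part of sequencing depth and of the list form in this difference between replicates was not tested.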
